A study of Mus musculus with 24 samples.

Results

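Neuronal synapse and cytoskeleton genes are described here in RNA from mouse spinal cord before and after contusive spinal cord injury (SCI). Levels are given in total RNA and in RNA pulled down with ribosomes of oligodendrocytes (OLs). The set holds 37 genes of the 21965 in the count table, taken from a list of names of proteins with known places in the synapse, the cytoskeleton and the nucleus of neurons, with no threshold on a measured value. All 37 had counts in every library and were among the 17167 genes with at least 10 counts over the 24 libraries that were tested. By role, 13 code for proteins of vesicle fusion and of the synaptic vesicle, 3 for scaffolds of the active zone, 5 for postsynaptic proteins, 5 for neuronal intermediate filaments, 4 for microtubule and growth cone proteins, 4 for neuronal RNA-binding proteins and 3 for enzymes and a surface protein used as neuron markers.

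At a chemical synapse, vesicles filled with transmitter dock at the active zone of the presynaptic terminal, where scaffold proteins hold them near calcium channels. SNARE proteins on the vesicle and on the plasma membrane zip together and fuse both membranes when calcium binds to synaptotagmin, and complexins clamp and then assist that step. Across the cleft, scaffolds anchor receptors and the calcium-dependent kinase CaMKII. Neurofilaments set the calibre of large axons, and growth cone proteins such as GAP-43 are made while axons extend or regrow. The spinal cord holds motoneurons, interneurons and ascending and descending axons, and OLs wrap those axons in myelin.

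The mice of every group carried a Cre transgene active in OLs together with the rpl22HA allele. In this model, tamoxifen activates the Cre recombinase, and the recombined cells then make the ribosomal protein RPL22 with a haemagglutinin (HA) tag. HA antibody pulled down tagged ribosomes with their mRNA (OL RNA), while total RNA came from the input lysate of the same homogenate and so held transcripts of all cells. Female mice were left naive or received a contusion of 50 kdyn at the ninth thoracic vertebral level, and cord tissue was taken on day post-injury (dpi) 2, 10 or 42. The labels give 10 to 12 weeks as the age at injury in every group, naive mice included. Each of the 8 groups, naive, dpi 2, dpi 10 and dpi 42 in total and in OL RNA, had 3 libraries, each from a pool of tissue from a pair of mice. The tag marks cells in which this Cre recombined and not cells sorted by type. The study reported that its OL RNA also held mRNA of other cells, microglia and macrophages among them. It proposes that abundant mRNA of such cells bound to the beads without the tag. It adds that this Cre line is active in Schwann cells too. How much of the members' OL RNA came from cells other than OLs was not tested. By the study's account, naive tissue was collected on the same day and at the same age as dpi 42 tissue. Tissue of dpi 2 and dpi 10 was collected on other days and from younger mice. Collection day, age at collection and time after SCI therefore cannot be told apart there.

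Libraries held 25840127 to 32987841 counts, so 3 counts corresponded to 0.0840 to 0.127 CPM (counts scaled to a common library size). Levels below are CPM on library sizes scaled by TMM (trimmed mean of M-values), and values of the 3 replicates are given in the order of their numbers. All 9 mature OL markers of a list had more signal in OL than in total RNA in each of the 4 conditions (q under 0.05). A title and a description of the labels disagree on the kind of RNA in 2 libraries of dpi 42. They were grouped by the description, which their column names share, as total RNA replicate 2 and OL RNA replicate 1. Mbp, which codes for myelin basic protein, stood at 12530 CPM in the former, against 11450 to 12160 in the other dpi 42 total libraries. In the latter it stood at 53480, against 58340 to 70020 in the other dpi 42 OL libraries. By the tissue numbers in the column names, these 2 libraries come from the same pool. Total replicate 1 and OL replicate 2 of dpi 42 share another pool. Equal replicate numbers there mark the same pool for replicate 3 alone, and leaving out the 2 libraries removes a whole pool. Astrocyte markers summed to 7623 to 14710 CPM in 5 OL libraries (naive replicate 3, dpi 2 replicate 3, dpi 10 replicate 2, dpi 42 replicates 1 and 2) and to 2231 to 4149 CPM in the other 7. In total RNA, markers of sensory ganglion neurons summed to 3.64 to 4.16 CPM in naive tissue, to 51.1, 72.4 and 2.84 CPM on dpi 2, to 27.7, 1.499 and 4.27 CPM on dpi 10 and to 22.5, 87.9 and 15.97 CPM on dpi 42. The total libraries at 51.1, 72.4, 27.7 and 87.9 CPM are called rich in these markers below. Leaving them out kept replicate 3 as the only dpi 2 total library. Both libraries of dpi 2 replicate 2 held 2414 and 2604 counts of Y-linked genes, against 0 to 13 in each of the other 22, although the labels call all mice female. The part of these differences in the results was not tested except where a value without the libraries is given.

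Sequence upstream of the start sites is shown for 4 members, 2 whose transcripts OL RNA held more of than total RNA (Elavl3 and Sv2a) and 2 with a motif that is known from neuronal or from tissue-specific promoters (Syn1 and Prph). RefSeq windows on GRCm38.p6, from 250 bases before to 50 after the start, were at hand for 26 of the 37 members and for 27025 genes in all. Capitals mark TATAAA in Elavl3 and Prph, CCGCCC in Sv2a and TTCAGCACC in Syn1. The last is the left part of the site of the neuronal repressor REST, and the remainder of that site was not searched for. Each run is 5′ to 3′ on the gene's strand and ends before the first transcribed base of any annotated transcript.
Elavl3 chr9:22052024-22052273, minus strand: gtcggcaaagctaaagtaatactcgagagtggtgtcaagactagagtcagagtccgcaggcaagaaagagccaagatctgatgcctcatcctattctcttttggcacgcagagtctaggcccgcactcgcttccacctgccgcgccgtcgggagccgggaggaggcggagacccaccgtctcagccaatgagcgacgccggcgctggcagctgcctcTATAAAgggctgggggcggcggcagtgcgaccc
Sv2a chr3:96180977-96181150, plus strand: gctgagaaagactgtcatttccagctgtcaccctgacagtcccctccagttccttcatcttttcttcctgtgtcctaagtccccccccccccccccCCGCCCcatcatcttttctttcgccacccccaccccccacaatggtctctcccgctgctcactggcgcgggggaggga
Syn1 chrX:20921005-20921168, minus strand: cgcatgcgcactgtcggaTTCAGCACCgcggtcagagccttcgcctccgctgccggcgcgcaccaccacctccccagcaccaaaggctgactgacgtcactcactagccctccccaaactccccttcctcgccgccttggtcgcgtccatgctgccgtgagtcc
Prph chr15:99054924-99055173, plus strand: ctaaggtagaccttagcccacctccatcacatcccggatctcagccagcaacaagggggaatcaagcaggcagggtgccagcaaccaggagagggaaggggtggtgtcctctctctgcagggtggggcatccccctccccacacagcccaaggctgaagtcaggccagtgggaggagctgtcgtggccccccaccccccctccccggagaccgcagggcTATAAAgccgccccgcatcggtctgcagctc
On both strands of the 300-base windows, TATAAA matched in 4 of 26 members (15.4%; Elavl3, Eno2, Prph and Sv2b) and in 15.7% of all windows. CCGCCC matched in 19 members (73.1%) and in 38.2% of all windows, and TTCAGCACC in Syn1 alone (3.85%) and in 0.433% of all windows. None of the 3 motifs holds another within it, and a match is a description of the letters only.

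In naive total RNA the transcripts of a neurofilament subunit, a complexin and a SNARE led the set, while relatives of each stood lower. Per kilobase of exon, Nefl, the light neurofilament subunit, stood at 756 ± 33.6 CPM per kb (SD, n = 3), Cplx1, complexin 1, at 703 ± 35.7, and Snap25, the plasma membrane SNARE, at 507 ± 12.2. Nefl and Cplx1 did not differ beyond their spread, and both lay above Snap25. Pclo, the piccolo scaffold with the largest summed exon length of the set, was lowest at 4.81 ± 0.826. In naive OL RNA the order was another. Sv2a, a glycoprotein of the synaptic vesicle, stood at 254 ± 50.2 CPM per kb, Uchl1, a ubiquitin hydrolase, at 238 ± 57.4, Elavl3, the RNA-binding protein HuC, at 191 ± 25.6 and Tubb3, class III beta-tubulin, at 189 ± 8.31, and neighbours in that order overlapped within their SDs. Vamp2, the vesicle SNARE, followed at 77.7 ± 0.979, and Nefl at 47.8 ± 4.37.

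**Figure D1:**
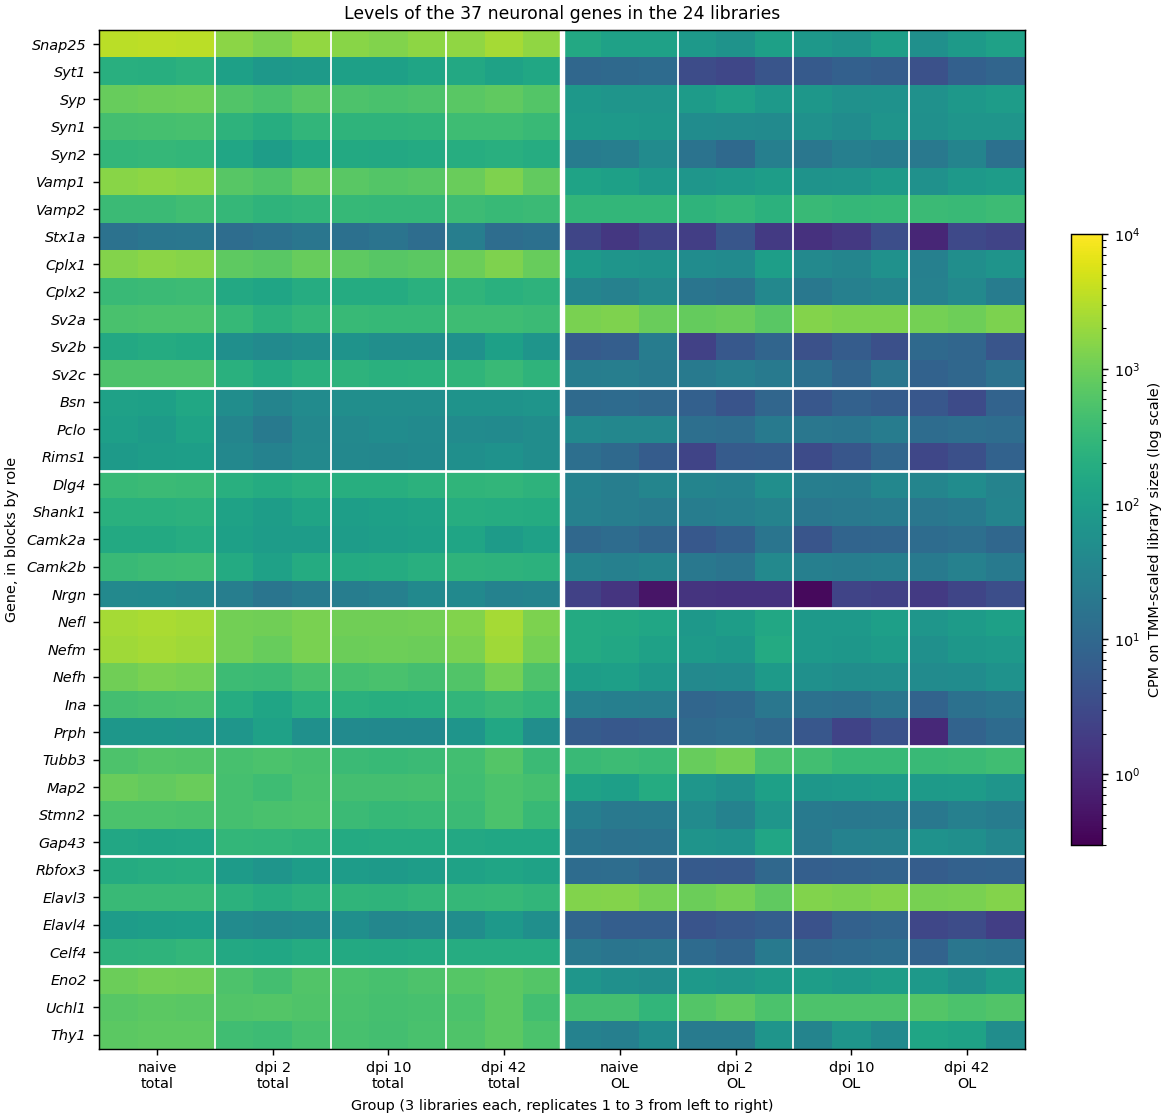
Levels of the 37 genes (vertical axis, in blocks by role) in the 24 libraries (horizontal axis, 3 per group), as CPM on TMM-scaled library sizes with a logarithmic colour scale. The OL columns on the right are darker than the total columns for most genes, with Sv2a, Elavl3, Tubb3, Uchl1 and Vamp2 the brightest there, and the first block of columns, naive total RNA, is brighter than the 3 after SCI.

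OL enrichment, the log2 fold change of OL over total RNA, addressed how much of these transcripts the pulled-down RNA held relative to the whole tissue. In naive cord 35 of the 37 members were lower in OL than in total RNA (edgeR quasi-likelihood test, q under 0.05, where q is the p-value adjusted by Benjamini-Hochberg over all tested genes), and 2 were higher. Of all tested genes 30.5% were lower and 24.9% higher. The median of the 37 was -3.64, against -0.27 over all genes. All 37 had groups that did not overlap, 35 with OL below and 2 with OL above, as did 38.1% and 28.8% of all genes.

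Nrgn, Sv2c and Snap25 had the lowest OL enrichment of the 37, Nrgn and Snap25 in naive cord and Sv2c on dpi 42. Nrgn, the postsynaptic calmodulin-binding protein neurogranin (ENSMUSG00000053310, chr9:37544492-37552904, minus strand), stood at 39.8, 41.9 and 35.6 CPM in naive total RNA and at 2.23, 1.48 and 0.535 CPM in naive OL RNA, a log2 fold change of -4.79 ± 0.48 (q = 2.32e-08). Snap25 (ENSMUSG00000027273, chr2:136713453-136782428, plus strand) stood at 3425, 3533 and 3370 CPM in total and at 158, 115 and 117 CPM in OL RNA (-4.73 ± 0.27, q = 4.30e-12). Every OL value of both genes lay far below every total value. Sv2c, a relative of Sv2a found in fewer neuron types (ENSMUSG00000051111, chr13:95954594-96132577, minus strand), stood at 274, 343 and 264 CPM in dpi 42 total and at 7.83, 9.56 and 15.1 CPM in dpi 42 OL RNA (-4.76 ± 0.24, q = 1.41e-12). Syt1, the calcium sensor of fusion, had -4.40 ± 0.24, Cplx1 -4.39 ± 0.33, Stmn2, a microtubule-destabilising protein of growth cones, -4.50 ± 0.25 and Thy1, a surface glycoprotein, -4.42 ± 0.42 in naive cord, all with q under 0.05. The nuclear neuron marker Rbfox3 (NeuN, ENSMUSG00000025576, chr11:118489762-118911597, minus strand) stood at 181, 198 and 207 CPM in total and 12.02, 12.6 and 9.29 CPM in OL RNA (-4.11 ± 0.20, q = 5.73e-13).

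Neurofilament transcripts, among the most abundant of the set, were low in OL RNA as well. Nefl (ENSMUSG00000022055, chr14:68083863-68089095, plus strand) stood at 2495, 2687 and 2486 CPM in total and at 174, 166 and 145 CPM in OL RNA of naive cord (-3.98 ± 0.26, q = 2.35e-11). Nefm, the medium subunit (ENSMUSG00000022054, chr14:68082590-68124846, minus strand), stood at 2246, 2501 and 2280 and 171, 154 and 118 CPM (-3.99 ± 0.30, q = 2.29e-10). Nefh, the heavy subunit (ENSMUSG00000020396, chr11:4938754-4948064, minus strand), stood at 1036, 1215 and 1150 and 98.4, 107 and 76.6 CPM (-3.59 ± 0.28, q = 4.19e-10). None of the 3 had an OL library that reached a total library. Exons of Nefl and Nefm overlap on opposite strands, as do those of Syn1 with Araf, Syn2 with Timp4, Ina with Nt5c2 and Shank1 with 1700008O03Rik, and the sources used here do not say whether counting was by strand, so reads of such pairs cannot be told apart there. Elavl3 shares exons on its own strand with Gm49318, which was listed with 0 counts in all 24 libraries.

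Elavl3 and Sv2a were the 2 members that were higher in OL RNA, in all 4 conditions. Elavl3 (ENSMUSG00000003410, chr9:22015005-22052023, minus strand) stood at 346, 348 and 352 CPM in naive total and at 1388, 1442 and 1113 CPM in naive OL RNA (1.91 ± 0.13, q = 6.05e-11). Sv2a (ENSMUSG00000038486, chr3:96181151-96195521, plus strand) stood at 510, 523 and 524 CPM in naive total and at 1249, 1362 and 915 CPM in naive OL RNA (1.18 ± 0.14, q = 1.54e-07). All OL libraries lay above all total libraries for both genes. On dpi 2, dpi 10 and dpi 42 OL enrichment was 2.09, 2.32 and 2.06 for Elavl3 and 1.53, 2.05 and 1.57 for Sv2a, all with q under 0.05, and all 24 fits that each left out 1 library and all 15 other alternatives kept these calls. Close relatives were lower in OL RNA, with Elavl4, the RNA-binding protein HuD, at -3.76 ± 0.26 and Sv2b at -3.78 ± 0.48 in naive cord.

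Tubb3, Uchl1 and Vamp2 lay near parity. In naive cord Tubb3 had an OL enrichment of -0.73 ± 0.19 (q = 0.00281), Uchl1 of -0.84 ± 0.17 (q = 0.000216) and Vamp2 of -0.37 ± 0.09 (q = 0.00138), and all 3 calls were lost with an offset for gene length and GC content, under which Vamp2 stood at 0.12. The call of Vamp2 was kept in 14 of 24 fits that each left out 1 library. Tubb3 belongs to a family of tubulins with similar coding sequence, and how reads that match several of them were treated is not given in the sources used here. Together Sv2a, Elavl3, Tubb3, Uchl1 and Vamp2, 5 genes chosen here after their values were seen, made up 67.4% to 73.4% of the summed CPM of the 37 members in naive OL libraries and 10.4% to 10.6% in naive total libraries.

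**Figure D2:**
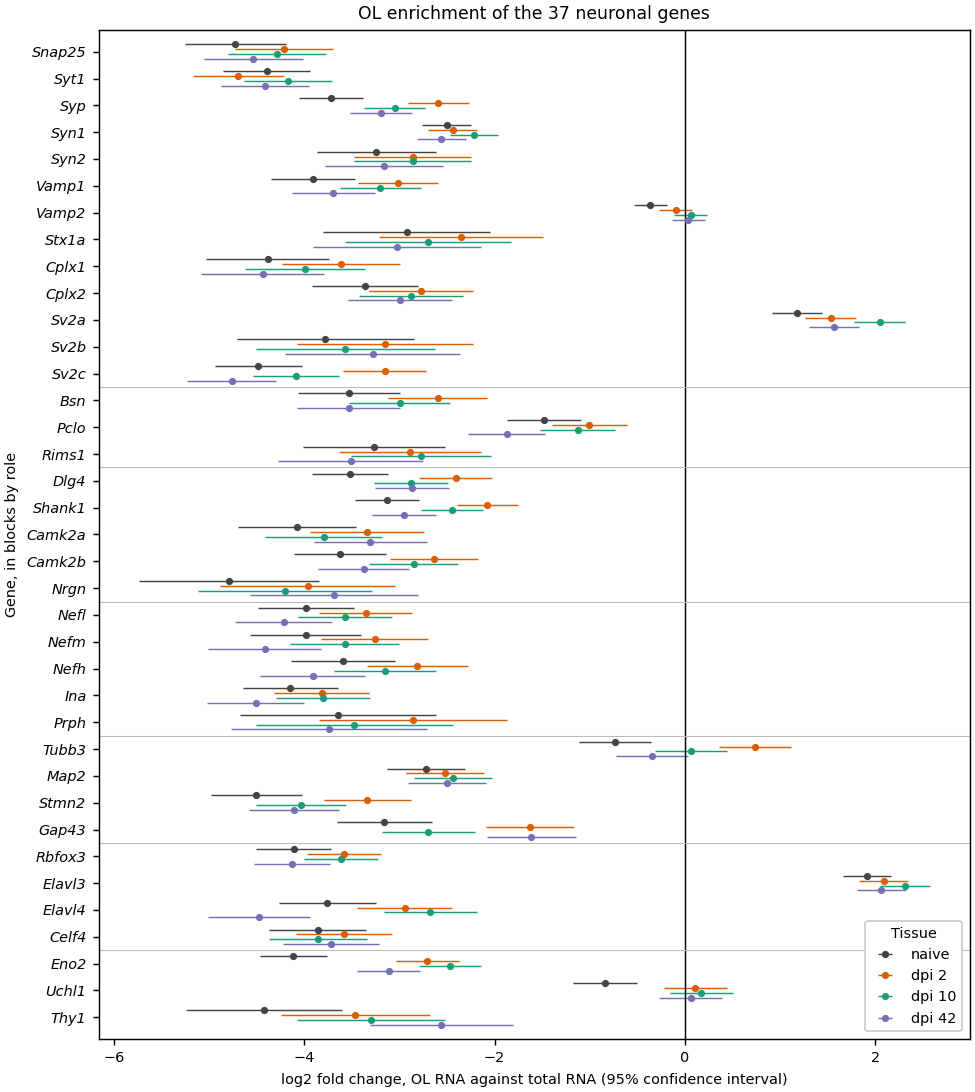
OL enrichment of the 37 genes, as log2 of OL over total RNA (horizontal axis, 0 is parity) with its 95% confidence interval, in naive cord and on dpi 2, 10 and 42. Most genes lie between -5 and -2, Elavl3 and Sv2a lie to the right of 0 in all 4 conditions, and Tubb3, Uchl1 and Vamp2 lie near 0.

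After SCI most members were still lower in OL than in total RNA. On dpi 2, 32 members were lower and 3 higher in OL RNA (28.8% and 24.8% of all genes), on dpi 10, 32 lower and 2 higher (28.8% and 25.2%), and on dpi 42, 32 lower and 2 higher (28.9% and 24.9%). The medians were -2.86, -3.00 and -3.31, against -0.19, -0.22 and -0.18 over all genes. The third higher member on dpi 2 was Tubb3 at 0.73 ± 0.19 (q = 0.00309), a call that was lost without dpi 2 OL replicate 2, at 0.44, and with library sizes alone, at 0.15. The summed CPM of the 37 in OL RNA came to 20.8% of that in total RNA in naive cord, 38.3% on dpi 2, 41.5% on dpi 10 and 29.9% on dpi 42. In OL RNA that sum was mostly of Sv2a, Elavl3, Tubb3, Uchl1 and Vamp2, so these shares say little of the other members.

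Total RNA was compared between each time after SCI and naive cord to ask how neuronal transcripts of the whole tissue changed. On dpi 2, 29 of the 37 members fell, 17 of them past 1 on the log2 scale, and 1 rose, while 20.8% of all tested genes fell, 6.33% past 1, and 16.4% rose. On dpi 10, 32 fell, 15 past 1, and none rose (18.2%, 3.07% and 13.9% of all genes). On dpi 42, 13 fell, 1 past 1, and none rose (12.1%, 0.798% and 10.4%). By unadjusted p, 32, 32 and 23 of the 37 had a value under 0.05, and DESeq2 called 0 members higher on dpi 10 and dpi 42. Medians were -0.97, -0.89 and -0.56, against -0.10, -0.10 and -0.08 over all genes. The 3 comparisons share the naive libraries. In a bulk sample fewer neurons and less RNA per neuron cannot be told apart. All 12 total libraries were scaled to a common size, and transcripts of other cells rose in them: markers of microglia and macrophages, with 9, 10 and 9 of 10 genes called higher on dpi 2, 10 and 42, summed to 251 to 311 CPM in naive and to 1721 to 5914 CPM in injured cord, and markers of fibroblasts, with 6, 6 and 5 of 6 called higher, to 67.0 to 92.1 and 423 to 2390 CPM. None of the markers was at 0 in any total library. Their part in the falls was not tested.

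The summed level of the 37 in total RNA was lower after SCI. It was 23310, 24820 and 24270 CPM in the naive total libraries and went to 12640, 11030 and 13790 CPM on dpi 2, to 12200, 11620 and 12510 CPM on dpi 10 and to 14940, 20150 and 13840 CPM on dpi 42. Every library after SCI lay below every naive one, and dpi 42 replicate 2, a library with a conflicting label, lay nearest to them. As means these were 51.7%, 50.2% and 67.6% of naive. The summed OL level ran from 4376 to 5334 CPM over all 12 OL libraries, with means of 95.4%, 100% and 97.5% of naive. Sv2a, Elavl3, Tubb3, Uchl1 and Vamp2, chosen after their values were seen, made up 62% to 80.9% of it in single OL libraries. The other 32 members summed to 1599, 1418 and 1428 CPM in naive OL RNA, to 1040, 1024 and 1692 CPM on dpi 2, to 989, 997 and 1185 CPM on dpi 10 and to 1017, 1214 and 1224 CPM on dpi 42. Their dpi 10 and dpi 42 sums lay below every naive one, and dpi 2 replicate 3 lay above.

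Sv2b, a synaptic vesicle glycoprotein, and the active zone scaffolds Pclo and Bsn had the largest falls of the set on dpi 2. Sv2b (ENSMUSG00000053025, chr7:75114894-75309262, minus strand) stood at 161, 181 and 164 CPM in naive total RNA, at 52.99, 44.2 and 51.2 CPM on dpi 2, at 64.2, 52.04 and 52.2 CPM on dpi 10 and at 59.04, 110 and 69.6 CPM on dpi 42, with log2 fold changes of -1.77 ± 0.43 (q = 0.00264), -1.59 ± 0.43 (q = 0.00693) and -1.09 ± 0.43 (q = 0.0736). Pclo (ENSMUSG00000061601, chr5:14514918-14863459, plus strand) stood at 107, 90.01 and 127 CPM in naive cord and at 34.3, 22.1 and 38.5 CPM on dpi 2, at 39.7, 46.8 and 43.9 CPM on dpi 10 and at 45.2, 43.3 and 50.4 CPM on dpi 42 (-1.77 ± 0.20, q = 7.39e-07; -1.31, q = 3.20e-05; -1.22, q = 0.000138). Bsn, the partner scaffold bassoon (ENSMUSG00000032589, chr9:108096022-108190384, minus strand), stood at 117, 111 and 148 CPM in naive cord and at 49.97, 32.4 and 44.8 CPM on dpi 2, at 50.6, 50.9 and 51.05 CPM on dpi 10 and at 62.4, 62.9 and 68.3 CPM on dpi 42 (-1.56, -1.30 and -0.96, all with q under 0.05). All libraries after SCI lay below all naive libraries for the 3 genes. Without the total libraries rich in sensory ganglion markers Sv2b had -1.72 on dpi 2, from dpi 2 total replicate 3 alone. Rims1, which links vesicles to calcium channels, fell on dpi 2 (-1.42 ± 0.35) and dpi 10 (-1.30 ± 0.35) and stood at -0.83 ± 0.35 on dpi 42 (q = 0.0943). The summed level of the 3 scaffolds was 33.4%, 40.5% and 50.1% of naive.

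Of the 13 vesicle members, 12 fell on dpi 2, 12 on dpi 10 and 6 on dpi 42. Snap25 stood at 1648, 1287 and 1841 CPM on dpi 2, at 1573, 1408 and 1734 CPM on dpi 10 and at 1810, 2449 and 1740 CPM on dpi 42 (-1.11 ± 0.23, q = 0.000662; -1.13, q = 0.000722; -0.78, q = 0.018). Each of these 9 libraries lay below the lowest naive library, and dpi 42 replicate 2 was the highest of them. The dpi 42 call was kept in 17 of 24 fits that each left out 1 library. Without the total libraries rich in sensory ganglion markers the dpi 2 value was -0.90, from dpi 2 total replicate 3 alone. Falls on dpi 2 ran from -0.43 for Vamp2 to -1.77 for Sv2b, with Syt1 at -1.26 ± 0.21, Vamp1, a vesicle SNARE related to Vamp2, at -1.24 ± 0.20 and Syn1, which tethers vesicles, at -0.92 ± 0.13. Stx1a, the syntaxin partner of Snap25, was not called at any time (-0.21 ± 0.41, -0.25 and 0.02). Its total level was 15.1, 17.7 and 18.8 CPM in naive cord, the lowest of the 13.

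Of the 5 postsynaptic members, 4 fell on dpi 2, 4 on dpi 10 and none by edgeR on dpi 42, where 2 had an unadjusted p under 0.05. Camk2b, the beta subunit of CaMKII, had -1.26 ± 0.22, -0.99 and -0.59 on dpi 2, 10 and 42. Dlg4, which codes for the scaffold PSD-95, had -0.78 ± 0.19, -0.69 and -0.36, and Shank1, a deeper scaffold, -0.98 ± 0.16, -1.03 and -0.29. Nrgn was not called at any time (-0.84 ± 0.40, -0.30 and -0.17). The summed level of the 5 was 51.2%, 55.8% and 73.7% of naive.

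The neurofilaments fell on dpi 2 and dpi 10 and were split by 1 library on dpi 42. Nefl stood at 1098, 1058 and 1219 CPM on dpi 2, at 1063, 1039 and 1073 CPM on dpi 10 and at 1387, 2480 and 1265 CPM on dpi 42 (-1.18 ± 0.23, q = 0.000311; -1.27, q = 0.0002; -0.58, q = 0.0738). Nefm stood at 1100, 872 and 1240 CPM on dpi 2, at 973, 999 and 971 CPM on dpi 10 and at 1250, 2227 and 1129 CPM on dpi 42 (-1.13, q = 0.00194; -1.26, q = 0.000973; -0.61, q = 0.109). Nefh stood at 377, 360 and 478 CPM on dpi 2, at 460, 493 and 454 CPM on dpi 10 and at 592, 1157 and 553 CPM on dpi 42 (-1.48, q = 9.37e-05; -1.27, q = 0.000554; -0.56, q = 0.12). On dpi 42 replicate 2 was in the range of, or just below, the naive libraries for all 3 subunits, and replicates 1 and 3 were far below. Without the 2 libraries with conflicting labels the dpi 42 values were -0.95 (q = 0.00186), -0.98 (q = 0.00964) and -0.99 (q = 0.00544). Dpi 42 total replicate 2 also had the highest level of sensory ganglion markers (87.9 CPM). It had 776 counts of Scn10a, a sodium channel of sensory neurons, against 252 and 146 in replicates 1 and 3. Scn10a had 0 counts in all 3 naive total libraries. Dpi 2 total replicate 2 had 577 counts of Scn10a and the lowest Nefl, Nefm and Nefh levels of dpi 2. The part of sensory ganglion RNA in the dpi 42 neurofilament levels was not tested. Prph, peripherin, an intermediate filament of sensory and motor neurons, stood at 75.4, 74.3 and 70.2 CPM in naive total RNA, at 71.7, 115 and 56.6 CPM on dpi 2, at 44.2, 42.2 and 42.3 CPM on dpi 10 and at 68.8, 154 and 51.7 CPM on dpi 42 and was not called at any time (0.14 ± 0.46, -0.77, 0.32). Its highest libraries, replicate 2 on dpi 2 and on dpi 42, were those with the most sensory ganglion markers at their time. Ina, alpha-internexin, which assembles with the neurofilament subunits, had -1.40 ± 0.23, -1.16 and -0.65, all with q under 0.05, and its dpi 42 call was kept in 9 of 24 fits that each left out 1 library. On dpi 2, without the total libraries rich in sensory ganglion markers, Nefl had -1.07, Nefm -0.92 and Nefh -1.24, from dpi 2 total replicate 3 alone.

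Growth cone and microtubule members moved in different directions. Gap43 (ENSMUSG00000047261, chr16:42248442-42340651, minus strand) was the 1 member that rose in total RNA, from 152, 135 and 141 CPM in naive cord to 294, 282 and 260 on dpi 2 (0.96 ± 0.23, q = 0.0024). All dpi 2 libraries lay above all naive ones. Dpi 10 libraries (173, 180 and 184 CPM) lay above naive without a call (0.33 ± 0.23, q = 0.314), and dpi 42 libraries (164, 148 and 150 CPM) overlapped naive (0.11, q = 0.8). Without the total libraries rich in sensory ganglion markers the dpi 2 value was 0.87, from dpi 2 total replicate 3 alone. Map2, a dendritic microtubule protein, was lower than in naive cord with q under 0.05 on each day, with -0.96 ± 0.20, -0.99 and -0.95 in the order of the times. Tubb3 and Stmn2 fell on dpi 10 (-0.73 ± 0.19, q = 0.00584, and -0.62 ± 0.21, q = 0.03) and stood at -0.24 and -0.06 on dpi 2 without a call. The dpi 10 call of Stmn2 was kept in 8 of 24 fits that each left out 1 library, and that of Tubb3 in all 24.

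The RNA-binding members and the neuron markers differed in how many of their changes were called. Rbfox3 stood at 90.2, 67.4 and 100 CPM on dpi 2, at 94.4, 87.8 and 101 CPM on dpi 10 and at 124, 138 and 120 CPM on dpi 42 (-1.19 ± 0.18, -1.05 and -0.62, all with q under 0.05). Elavl4 had -1.23 ± 0.23, -1.19 and -0.71 in the order of the times, each called, and Celf4, which binds mRNAs of synaptic proteins, -0.71 ± 0.23, -0.70 and -0.53, called on dpi 2 and dpi 10. Elavl3 fell on dpi 2 (-0.61 ± 0.13, q = 0.000607), and its fall on dpi 10 (-0.33 ± 0.13, q = 0.0498) was lost with the replicate number as a block (-0.33, q = 0.0636) and kept in 1 of 24 fits that each left out 1 library. Of the neuronal enzymes, Eno2, neuron-specific enolase, fell on dpi 2, 10 and 42 (-0.95 ± 0.16, -0.97 and -0.63), Uchl1 fell on dpi 10 (-0.52 ± 0.17, q = 0.0207, kept in 10 of 24 such fits), and Thy1 was not called (-0.82 ± 0.36, -0.65 and -0.31) although its dpi 2 and dpi 10 libraries (409, 383 and 478 and 474, 454 and 500 CPM) lay below its naive ones (711, 763 and 768 CPM).

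Counts of falls in total RNA were least steady on dpi 42. They ran from 5 without dpi 42 total replicate 3 to 18 without dpi 42 total replicate 2, and came to 19 without the 2 libraries with conflicting labels. On dpi 2, 16 fell and none rose without the total libraries rich in sensory ganglion markers, an alternative that left dpi 2 with replicate 3 alone, which was assumed to vary like the other groups.

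**Figure D3:**
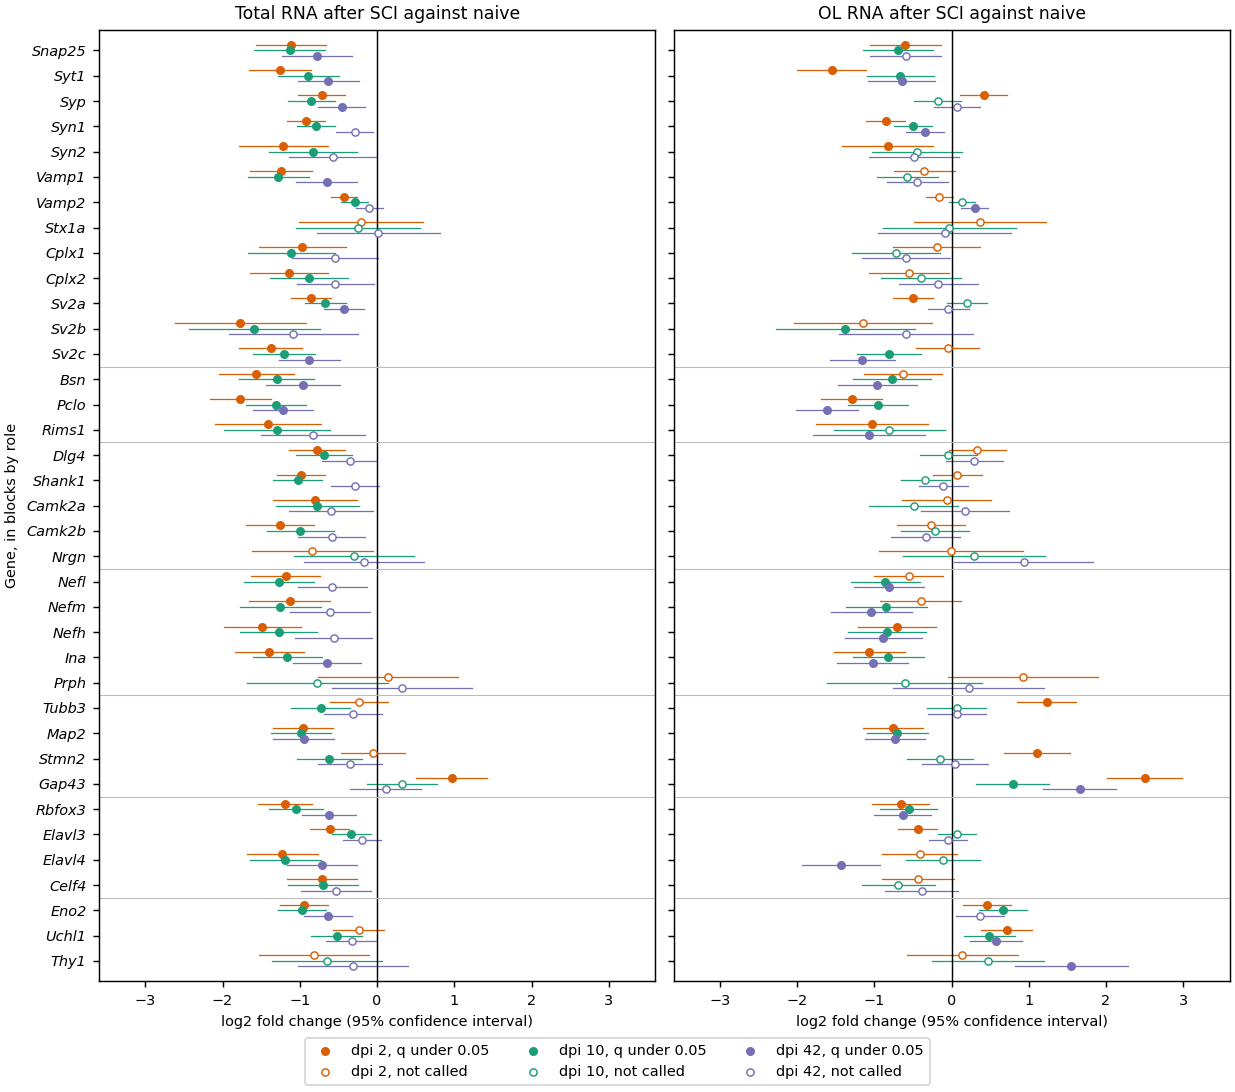
Change of the 37 genes after SCI against naive cord, as log2 fold change (horizontal axis) with its 95% confidence interval, in total RNA and in OL RNA on dpi 2, 10 and 42. In total RNA nearly all genes lie left of 0, with Gap43 on dpi 2 to the right. In OL RNA the genes spread to both sides, with Gap43 at 2.50 on dpi 2 farthest to the right.

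OL RNA was compared between each time and naive cord in the same way, to ask what the pulled-down RNA held of these transcripts. On dpi 2, 6 members rose and 12 fell (18.4% and 20% of all genes), on dpi 10, 3 rose and 13 fell (9.62% and 8.59%), and on dpi 42, 4 rose and 13 fell (16.2% and 16.9%). Medians were -0.40, -0.49 and -0.35, against 0.00 over all genes. The naive OL libraries are shared by the 3 comparisons. Single libraries moved these counts, both those rich in astrocyte markers and others. On dpi 2, 21 fell without OL replicate 3 (rich) and 8 without OL replicate 1. On dpi 10, 3 fell without OL replicate 2 (rich), 4 without OL replicate 1, and 6 and 7 without naive OL replicates 1 and 2, while 1 rose without naive OL replicate 2 or dpi 10 OL replicate 2 or 3. On dpi 42, 2 rose without naive OL replicate 3 (rich), dpi 42 OL replicate 1 (rich) or dpi 42 OL replicate 3. Members such as Cplx1 (47.7, 44.1 and 101 CPM on dpi 2) and Nefm (86.7, 73.3 and 175 CPM) stood higher in dpi 2 replicate 3 than in replicates 1 and 2. Whether astrocyte RNA had a part in this was not tested.

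Markers of other cells also moved in these OL libraries. Of 10 markers of microglia and macrophages 9 were called higher at each time and 1 lower on dpi 2, and they summed to 22.2 to 29.9 CPM in naive and 101 to 333 CPM in injured OL RNA. Of 6 fibroblast markers 5, 5 and 6 were called higher on dpi 2, 10 and 42, with sums of 48.7 to 92.8 CPM in naive and 206 to 611 CPM in injured OL RNA. Schwann cell markers summed to 2.44, 2.16 and 641 CPM in the naive OL libraries and to 212 to 1527 CPM after SCI, with 0, 1 and 1 of 6 called higher. Of the 9 mature OL markers 3, 0 and 4 were called lower and 1, 1 and 0 higher. In at least 1 OL library Dcn and Lum of the fibroblast list were at 0. The part of these markers in the OL changes was not tested.

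Gap43 had the largest rise in OL RNA. It stood at 17.1, 14.9 and 15.8 CPM in naive OL libraries, at 64.9, 61.5 and 144 CPM on dpi 2, at 20.1, 30.7 and 31.9 CPM on dpi 10 and at 60.7, 52.98 and 37.2 CPM on dpi 42. All libraries after SCI lay above all naive ones, and dpi 2 replicate 3 was the highest. The log2 fold changes were 2.50 ± 0.25 (q = 1.09e-07), 0.79 ± 0.24 (q = 0.0259) and 1.66 ± 0.24 (q = 2.63e-05). Without the 5 OL libraries rich in astrocyte markers they were 1.92 (q = 7.41e-09), 0.70 (q = 0.00218) and 1.20 (q = 7.93e-05). Leaving these out kept 1 dpi 42 OL library, replicate 3, which was assumed to vary like the other groups, so each dpi 42 value in this setting rests on that library. The dpi 10 call was lost without naive OL replicate 2, dpi 10 OL replicate 2 or dpi 10 OL replicate 3, at 0.66 to 0.97 over all fits that each left out 1 library, and with an offset for length and GC content, at 0.32.

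Tubb3 and Stmn2 rose on dpi 2 and had no call on dpi 10 or dpi 42. Tubb3 (ENSMUSG00000062380, chr8:123411424-123422015, plus strand) stood at 344, 371 and 344 CPM in naive OL RNA and at 873, 1090 and 521 CPM on dpi 2 (1.23 ± 0.20, q = 3.54e-05), then at 429, 342 and 337 on dpi 10 and 352, 356 and 406 on dpi 42. The dpi 2 libraries lay above naive with replicate 3 the lowest of them, and the later libraries overlapped naive. With the offset for length and GC content the dpi 2 value was 0.54 and not called. Stmn2 stood at 27.3, 20.2 and 21.2 CPM in naive and 45.2, 30.3 and 72.2 CPM in dpi 2 OL RNA (1.11 ± 0.22, q = 0.000363), and dpi 2 replicate 3 was again the highest.

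Thy1 rose on dpi 42. It stood at 30.1, 26.5 and 47.9 CPM in naive OL RNA, at 23.2, 22.8 and 68.8 CPM on dpi 2, at 33.2, 68.3 and 43.6 CPM on dpi 10 and at 137, 119 and 50.1 CPM on dpi 42. Dpi 42 replicates 1 and 2 lay above all others, while replicate 3 was close to naive replicate 3. The dpi 42 change was 1.55 ± 0.37 (q = 0.00289). The highest Thy1 value of each time was in an OL library rich in astrocyte markers, which summed to 14710, 12800 and 2850 CPM in dpi 42 replicates 1, 2 and 3. Without those libraries the change was 0.81 (q = 0.00196), from dpi 42 OL replicate 3 alone, and their part in the result was not tested beyond this. Uchl1 (ENSMUSG00000029223, chr5:66676091-66687234, plus strand) stood at 448, 437 and 280 CPM in naive OL RNA and at 628, 766 and 514 CPM on dpi 2, at 554, 547 and 536 CPM on dpi 10 and at 612, 520 and 602 CPM on dpi 42 (0.71 ± 0.17, 0.49 and 0.57), above every naive library at each time. The dpi 10 call was kept in 6 and the dpi 42 call in 21 of 24 fits that each left out 1 library. With the offset for length and GC content these values turned to -0.13, -0.19 and -0.39. Eno2 (ENSMUSG00000004267, chr6:124760053-124769673, minus strand) rose on dpi 2 (0.46 ± 0.16, q = 0.0264) and dpi 10 (0.67 ± 0.16, q = 0.00506), from 71.3, 56.4 and 49.6 CPM in naive OL RNA to 80.8, 71.5 and 91.3 and 99.5, 84.8 and 97.9 CPM, and its dpi 2 rise was not called without the libraries rich in astrocyte markers (0.19, q = 0.269). The sixth rise on dpi 2, of the vesicle protein Syp (0.41 ± 0.15, q = 0.0395), was lost with the replicate number as a block (0.41, q = 0.0519) and kept in 14 of 24 fits that each left out 1 library. Vamp2 rose on dpi 42 (0.30 ± 0.09, q = 0.0121), a change that turned to -0.07 with the offset and was kept in 19 of those fits. The dpi 2 call of Eno2 was kept in 16 of them.

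**Figure D4:**
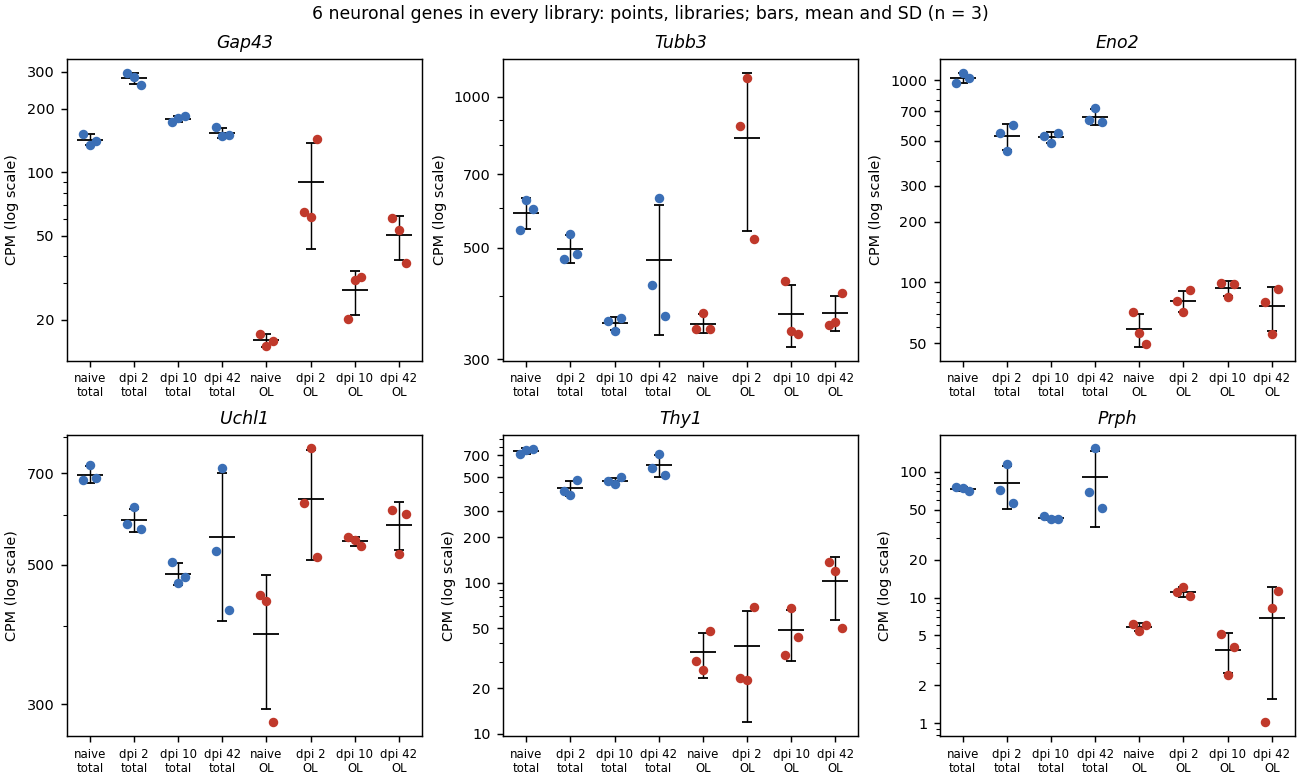
CPM (logarithmic axes) of Gap43, Tubb3, Eno2, Uchl1, Thy1 and Prph in every library, total RNA in blue and OL RNA in red, with points for libraries and bars for mean and SD of 3. Gap43 rises in both kinds of RNA on dpi 2, Eno2 falls in total RNA and rises in OL RNA on dpi 2 and dpi 10, and the dpi 42 total library with the highest Tubb3, Uchl1, Thy1 and Prph is replicate 2.

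Pclo on dpi 42, Syt1 on dpi 2 and Elavl4 on dpi 42 had the largest called falls in OL RNA. Pclo stood at 42.4, 36.9 and 36.6 CPM in naive OL RNA and at 13.2, 12.6 and 21.4 CPM on dpi 2, at 18.9, 16.97 and 23.8 CPM on dpi 10 and at 12.1, 13.4 and 12.4 CPM on dpi 42 (-1.29 ± 0.20, q = 2.91e-05; -0.96, q = 0.0019; -1.61, q = 5.75e-06). Syt1 (ENSMUSG00000035864, chr10:108497650-109010982, minus strand) stood at 9.54, 10.5 and 11.2 CPM in naive OL RNA and at 3.33, 2.71 and 4.59 CPM on dpi 2, at 5.75, 7.46 and 6.55 CPM on dpi 10 and at 3.95, 7.24 and 8.80 CPM on dpi 42 (-1.55 ± 0.23, q = 1.41e-05; -0.66, q = 0.039; -0.65, q = 0.0262). Elavl4 (ENSMUSG00000028546, chr4:110203722-110351909, minus strand) stood at 8.78, 6.81 and 6.66 CPM in naive OL RNA, at 4.57, 5.43 and 6.70 CPM on dpi 2, at 4.08, 7.50 and 9.02 CPM on dpi 10 and at 2.80, 3.32 and 2.11 CPM on dpi 42, and fell on dpi 42 (-1.43 ± 0.26, q = 0.000215). Every library after SCI lay below every naive one for Pclo and Syt1, and for Elavl4 this held on dpi 42, while its dpi 2 and dpi 10 libraries overlapped naive. The dpi 42 call of Syt1 was lost without dpi 42 OL replicate 1, at -0.42, and its dpi 10 call was kept in 18 of 24 fits.

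The other members that fell in OL RNA were spread over the roles. Sv2c fell on dpi 10 (-0.81 ± 0.21) and dpi 42 (-1.16 ± 0.21), Sv2a on dpi 2 (-0.50 ± 0.13, q = 0.00471) and Elavl3 on dpi 2 (-0.44 ± 0.13, q = 0.00873). Rbfox3 had -0.66 ± 0.19, -0.56 and -0.64 and Map2 -0.76 ± 0.20, -0.70 and -0.74, all with q under 0.05, and the dpi 10 call of Rbfox3 was kept in 9 of 24 fits that each left out 1 library. In OL RNA Nefl changed by -0.55 ± 0.23 (q = 0.0612), -0.86 ± 0.23 (q = 0.0115) and -0.81 ± 0.23 (q = 0.00897) and Snap25 by -0.60 ± 0.23 (q = 0.0473), -0.69 ± 0.23 (q = 0.043) and -0.59 ± 0.23 (q = 0.0546). Fitted with the replicate number as a block, Nefl and Bsn passed the test on dpi 2 (-0.59, q = 0.0434 and -0.67, q = 0.0323). So did Celf4 on dpi 10 (-0.71, q = 0.0331) and Snap25 on dpi 42 (-0.62, q = 0.0368), while Sv2b no longer did on dpi 10 (-1.32, q = 0.0607, against -1.38 and q = 0.0405 without the block). Sv2b stood at 5.97, 6.85 and 23.9 CPM in naive OL RNA, where replicate 3 was far above the others, and at 4.04, 6.24 and 3.88 CPM on dpi 10, and without naive OL replicate 3 its change was -0.44 (q = 0.474). None of the 5 postsynaptic members was called in OL RNA by edgeR at any time, 0, 1 and 0 of them had an unadjusted p under 0.05 on dpi 2, 10 and 42, and DESeq2 called 0 at each time. Dlg4 stood at 30.1, 26.02 and 34.9 CPM in naive and 33.1, 29.98 and 51.5 CPM in dpi 2 OL RNA.

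Differential OL enrichment, the OL enrichment after SCI minus that in naive cord, tested whether OL and total RNA changed unequally. On dpi 2 it was called higher for 11 members and lower for none (8.06% and 6.03% of all genes), on dpi 10 higher for 4 and lower for none (4.57% and 3.09%) and on dpi 42 higher for 4 and lower for none (4.37% and 3.47%). In all, 15, 13 and 8 members had an unadjusted p under 0.05 in either direction, and DESeq2 called 11, 8 and 5 higher and 0 lower. Medians were 0.74, 0.44 and 0.18, against 0.06, 0.08 and 0.04 over all genes. These values depend on the scaling. With a total RNA library as the TMM reference all genes shifted by -0.25 to -0.24, more than the size of the dpi 42 median. The 3 comparisons share the naive libraries of both kinds. The value equals the OL change minus the total change.

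Eno2 moved in opposite directions in the 2 kinds of RNA on dpi 2 and dpi 10. Its total level fell from 962, 1085 and 1027 CPM in naive cord, standing at 549, 444 and 597 CPM on dpi 2, at 528, 489 and 549 CPM on dpi 10 and at 635, 728 and 619 CPM on dpi 42, while its OL level of 71.3, 56.4 and 49.6 CPM in naive cord was followed by values at 80.8, 71.5 and 91.3 CPM on dpi 2, at 99.5, 84.8 and 97.9 CPM on dpi 10 and at 80.5, 55.6 and 92.7 CPM on dpi 42. Total libraries after SCI lay below all naive ones, OL libraries lay above all naive ones on dpi 2 and dpi 10, and OL libraries overlapped on dpi 42. Differential OL enrichment was 1.41 ± 0.22 (q = 0.000218), 1.64 ± 0.22 (q = 8.24e-05) and 1.00 ± 0.22 (q = 0.00792), and the dpi 42 call was lost without naive OL replicate 2, dpi 42 OL replicate 1 or dpi 42 OL replicate 3, at 0.66 to 1.08 over the fits that each left out 1 library. Eno2 codes for a glycolytic enzyme and was still lower in OL than in total RNA at each time (-2.71, -2.47 and -3.12).

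Gap43 rose in both kinds of RNA on dpi 2 and by more in OL RNA. Its differential OL enrichment was 1.53 ± 0.33 (q = 0.00341) on dpi 2, 0.46 ± 0.33 (q = 0.502) on dpi 10 and 1.55 ± 0.33 (q = 0.00633) on dpi 42. The called values were 0.81 (q = 0.00442) and 0.99 (q = 0.00799) without the OL libraries rich in astrocyte markers, the latter from dpi 42 OL replicate 3 alone. Tubb3 on dpi 2 had 1.47 ± 0.27 (q = 0.000995), 1.48 without those libraries. Stmn2 had 1.16 ± 0.30 (q = 0.0125) on dpi 2, which came to 0.52 (q = 0.130) without them and was lost without naive OL replicate 2, naive OL replicate 3 or dpi 2 OL replicate 3.

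The other calls of dpi 2 were of synaptic members and Uchl1. Of these, Sv2c had 1.33 ± 0.29 (q = 0.0036), Syp 1.13 ± 0.22 (q = 0.00134), Dlg4 1.11 ± 0.26 (q = 0.0064) and Shank1 1.06 ± 0.23 (q = 0.00298). Camk2b had 0.99 ± 0.32 (q = 0.0393) and Vamp1 0.89 ± 0.28 (q = 0.0399). In Sv2c, Dlg4, Shank1, Camk2b and Vamp1 the OL change itself was not called, and the total change was a fall. Without the total libraries rich in sensory ganglion markers, Sv2c had 1.25, Dlg4 1.03 and Shank1 0.91, with dpi 2 total replicate 3 as the only dpi 2 total library. The calls of Camk2b and Vamp1 were kept in 9 and 7 of 24 fits that each left out 1 library, and that of Vamp1 was lost with the tissue pool as a block (0.91, q = 0.0658). That of Dlg4 was lost without naive OL replicate 2 or dpi 2 OL replicate 3, at 0.63 to 1.16 over all such fits.

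On dpi 10 the calls besides Eno2 were Uchl1 (1.01 ± 0.24, q = 0.0112), Sv2a (0.87 ± 0.19, q = 0.00662) and Vamp2 (0.43 ± 0.13, q = 0.0411). Vamp2 was lost with the tissue pool as a block (0.42, q = 0.0876) and kept in 7 of 24 fits that each left out 1 library. Camk2b passed the test with that block (0.78, q = 0.0456, against 0.77 and q = 0.155 without it). Sv2a was lost without dpi 10 OL replicate 1, at 0.68. Uchl1 was called on dpi 2 (0.95 ± 0.24, q = 0.00942) and dpi 42 (0.90 ± 0.24, q = 0.0225) as well, and all 3 calls were lost with the offset for length and GC content (0.62, 0.77 and 0.42). The dpi 2 call of Uchl1 was kept in 21 and its dpi 42 call in 12 of 24 fits that each left out 1 library. On dpi 42 Thy1 had 1.86 ± 0.52 (q = 0.03), kept in 15 of 24 fits that each left out 1 library. It was 1.02 (q = 0.00499) without the OL libraries rich in astrocyte markers, from dpi 42 OL replicate 3 alone, and 1.73 (q = 0.0851) without the 2 libraries with conflicting labels.

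**Figure D5:**
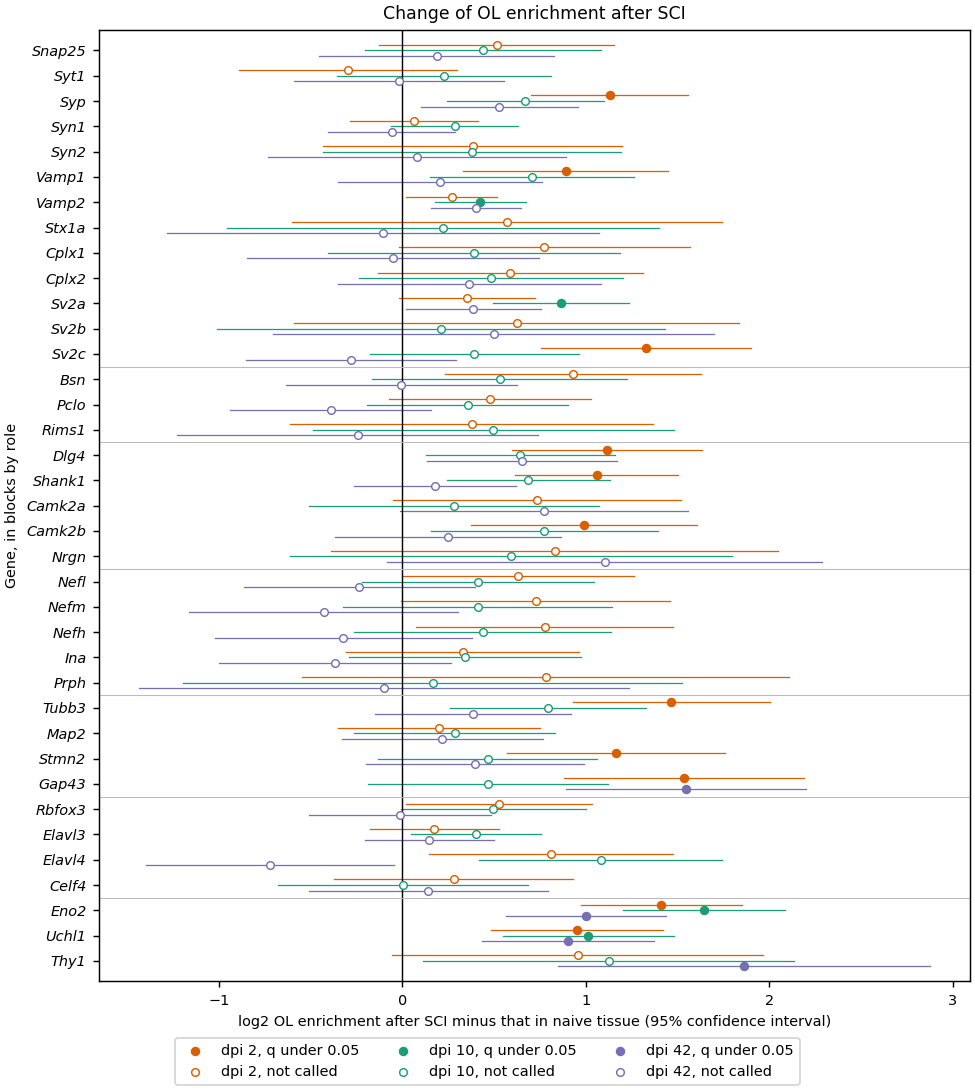
Differential OL enrichment of the 37 genes on dpi 2, 10 and 42 against naive cord, as a difference of log2 values (horizontal axis) with its 95% confidence interval; filled points have q under 0.05. All 19 filled points lie to the right of 0, from 0.43 for Vamp2 on dpi 10 to 1.86 for Thy1 on dpi 42.

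Between successive times few members were called in total RNA. From dpi 2 to dpi 10 none was called in either direction by edgeR (3.31% of all genes rose and 4.53% fell), with 5 members at an unadjusted p under 0.05 and 0 in either direction by DESeq2. From dpi 10 to dpi 42, 1 member rose, Shank1 (0.74 ± 0.16, q = 0.0493), and none fell (0.0583% and 0.204% of all genes), with 14 at an unadjusted p under 0.05 in either direction and 2 higher and 0 lower by DESeq2. The level of Shank1 went from 104, 111 and 123 to 195, 191 and 180 CPM with no overlap, and the call was kept in 3 of 24 fits that each left out 1 library. By sign, 36 of the 37 lay above 0 in this step, with a median of 0.34 against 0.02 over all genes.

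In OL RNA 5 members rose and 6 fell from dpi 2 to dpi 10 (11.7% and 10.6% of all genes). Of the growth cone and microtubule members 3 of 4 fell, with Gap43 at -1.71 ± 0.24 (q = 2.48e-05), Stmn2 at -1.26 ± 0.22 (q = 0.000246) and Tubb3 at -1.17 ± 0.20 (q = 0.000163), as did Prph at -1.53 ± 0.51 (q = 0.0337). Prph stood at 11.1, 12.2 and 10.2 CPM on dpi 2 and 5.09, 2.40 and 4.07 CPM on dpi 10, without overlap, and its call was lost when any 1 of these 6 libraries was left out. Syt1 rose (0.89 ± 0.23, q = 0.00724), as did Sv2a (0.70 ± 0.13, q = 0.000602), Elavl3 (0.51 ± 0.13, q = 0.00571), Vamp2 (0.29 ± 0.09, q = 0.0199) and Syn1 (0.35 ± 0.13, q = 0.0493). The call of Syn1 was lost with the replicate number as a block (0.35, q = 0.0626) and kept in 10 of 24 fits that each left out 1 library. Without dpi 2 OL replicate 3, 11 rose. From dpi 10 to dpi 42, Gap43 rose (0.87 ± 0.24, q = 0.0311) and Elavl4 fell (-1.32 ± 0.26, q = 0.00572), against 3.28% and 3.9% of all genes. The call of Gap43 was kept in 19 of those fits, and Pclo passed the test with the replicate number as a block (-0.63, q = 0.0339, against q = 0.0529 without it).

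Other neuronal genes from lists of the same roles were set beside the members. Of 21 other presynaptic genes, 19 were lower and 1 higher in OL than in total RNA of naive cord, with a median of -3.63, and 16, 15 and 12 fell in total RNA on dpi 2, 10 and 42. The gene higher in OL RNA was Syt11 (1.71, q = 7.32e-12), a synaptotagmin without calcium binding. Of 16 other postsynaptic genes, 14 were lower and 2 higher in OL RNA, and 10, 8 and 4 fell in total RNA. Of 18 other genes of the cytoskeleton 8 were higher and 8 lower in OL RNA, with Stmn4 (3.07, q = 2.80e-13) and Tubb4a, a tubulin known from OLs (3.05, q = 4.10e-13), the highest, while in total RNA 12, 11 and 6 fell. In total RNA Tubb2b (1.31, q = 4.56e-05) and Tuba1a (0.58, q = 0.000288), tubulins of growing axons, rose on dpi 2. All 8 other neuronal RNA-binding genes were lower in OL RNA, and 6, 4 and 2 fell in total RNA. These lists were set beside the members as a description, and no test compared them.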

How the data were processed

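RNA was sequenced from 24 libraries in 8 groups of 3. Per the labels, the deposited counts are raw whole-number counts per gene. The authors aligned reads with STAR and counted them with HTSeq (0.10.0 in the submitters' notes, which also name FastQC 0.10.1, mm10 and GRCm38.p6), and strand handling is not given in the sources used here. Genes with at least 10 counts in all were fitted in 1 model of the 8 groups with edgeR (version 4.0.16, R 4.3.3, TMM, quasi-likelihood F test), and p-values were adjusted by Benjamini-Hochberg over 17167 genes. Counts as deposited entered the fit, and CPM serves for display. The SE is the absolute log2 fold change divided by the square root of F, and SDs are over 3 libraries. Coordinates are GENCODE M21 on GRCm38. Simulated data had 16531 genes at naive total levels in all libraries, with 200 genes changed in dpi 2 total RNA alone. There 48% of changes of 1 and 80% of changes of 2 on the log2 scale were recovered. Of the calls 3.03% were false. In the real data 16.4% of genes rose and 20.8% fell in that comparison, so these shares do not carry over to it. Recovery was not measured for OL changes or differential OL enrichment.

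Alternatives were DESeq2 (1.42.0), other scalings and filters, an offset for gene length and GC content, terms for or removal of libraries rich in marker genes of other cells, removal of each library in turn, and the tissue pool as a block. That block was used for OL enrichment and its differences. It rests on column names, which give total and OL RNA of 1 pool the same tissue number, and on the study's methods. Changes between times were fitted with the replicate number as a block instead. Column names give libraries of different times different tissue numbers, so a shared replicate number marks no shared tissue there. The replicate block therefore has no basis in the design. Deviations from the group means of libraries from the same pool correlated at r from -0.0109 to 0.137. Members and lists were chosen with earlier results of these data known. Per-library values are given for Snap25, Rbfox3, Nefl, Nefm and Nefh and for the members with the 3 largest rises and falls in each kind of comparison, and those of Gap43 and others beyond that rule were chosen after their values were seen. Nothing in the labels says that the 3 pools of a group were independent experiments, so p-values measure the spread between these libraries.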

Additional observations from a re-analysis of the deposited data

Results flagged for a closer look

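For 19 values the change in OL RNA and the change in total RNA differed by the test of their difference (edgeR quasi-likelihood test of the interaction, q under 0.05), each with OL enrichment higher after SCI than in naive cord. On dpi 2 these were Gap43 (1.53), Tubb3 (1.47), Eno2 (1.41), Sv2c (1.33), Stmn2 (1.16), Syp (1.13), Dlg4 (1.11), Shank1 (1.06), Camk2b (0.99), Uchl1 (0.95) and Vamp1 (0.89), as differences of log2 values. On dpi 10 they were Eno2 (1.64), Uchl1 (1.01), Sv2a (0.87) and Vamp2 (0.43), and on dpi 42 Thy1 (1.86), Gap43 (1.55), Eno2 (1.00) and Uchl1 (0.90). With 3 libraries in a group, single libraries far from the others were not tested for.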

How the results depend on the processing

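Of 510 counts of called members (34 counts under 15 alternatives), 449 lay within 1.5 times the reported count. With total RNA libraries rich in sensory ganglion markers left out, 0 members rose and 16 fell in total RNA on dpi 2, differential OL enrichment on dpi 2 was higher for 5, and from dpi 10 to dpi 42 0 rose in total and 0 in OL RNA. With OL libraries rich in astrocyte markers left out, which kept 1 OL library of dpi 42, total RNA had 1 rise on dpi 10, 23 falls on dpi 42, 1 rise and 4 falls from dpi 2 to dpi 10 and 8 rises from dpi 10 to dpi 42. In the same setting OL RNA had 22 falls on dpi 2, 8 falls on dpi 42 and 14 rises from dpi 2 to dpi 10, and differential OL enrichment on dpi 10 was higher for 8. With a term for these libraries, differential OL enrichment was higher for 10 on dpi 10 and 7 on dpi 42, total RNA had 1 rise and 1 fall from dpi 2 to dpi 10 and 2 rises from dpi 10 to dpi 42, and OL RNA had 2 rises and 2 falls from dpi 10 to dpi 42. These 3 settings and a term for sensory ganglion markers were chosen after seeing the data. Leaving out the libraries rich in sensory ganglion markers kept 1 total library of dpi 2, so its counts that involve dpi 2 total RNA rest on that library. With that term, from dpi 10 to dpi 42, 0 rose in total RNA and 2 fell in OL RNA.

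With the groups compared fitted alone, total RNA had 1 rise on dpi 10, 22 falls on dpi 42, 5 falls from dpi 2 to dpi 10 and 12 rises from dpi 10 to dpi 42. OL RNA then had 4, 7 and 7 falls on dpi 2, 10 and 42, 1 rise from dpi 2 to dpi 10, and 0 rises and 0 falls from dpi 10 to dpi 42, and differential OL enrichment on dpi 10 was higher for 12. With the offset for length and GC content, OL enrichment on dpi 10 was higher for 4, OL RNA had 3 rises on dpi 2, 0 on dpi 10, 2 from dpi 2 to dpi 10 and 0 rises and 0 falls from dpi 10 to dpi 42, total RNA had 0 rises from dpi 10 to dpi 42, and differential OL enrichment on dpi 10 was higher for 1. With library sizes alone, 5 fell in total RNA on dpi 42, 6 in OL RNA on dpi 2 and 5 on dpi 10, and 0 rose in total RNA from dpi 10 to dpi 42. With a total RNA library as the TMM reference, 5 fell in total RNA on dpi 42, differential OL enrichment on dpi 10 was higher for 1, and from dpi 10 to dpi 42 0 rose in total RNA and 2 fell in OL RNA. DESeq2 gave 8 for differential OL enrichment on dpi 10, and from dpi 10 to dpi 42 2 rises in total and 2 falls in OL RNA. Without the 2 libraries with conflicting labels, differential OL enrichment on dpi 10 was higher for 8, total RNA had 1 fall from dpi 2 to dpi 10 and 0 rises from dpi 10 to dpi 42. For the step from dpi 10 to dpi 42, DESeq2's size factors gave 0 rises in total RNA, and 2 members fell in OL RNA under them, under edgeR's filterByExpr, without dpi 2 pool 2 and with the replicate block. The causes were not tested.

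Blocks were by tissue pool for OL enrichment and its differences and by replicate number for changes between times. They changed 12 calls of members, given above, and kept 293 of 299. The replicate number marks no shared tissue between times, so calls moved by that block say nothing about pairing. Of 11661 alternative values of members with a call, 10868 kept direction and side of the threshold, 788 lost the call and 5 turned, all with the offset: OL enrichment of Vamp2 in naive cord (0.12) and the OL changes of Uchl1 (-0.13, -0.19 and -0.39 on dpi 2, 10 and 42) and of Vamp2 on dpi 42 (-0.07). Scalings moved the median of all genes as well. For OL enrichment this was by -0.58 to -0.50 with library sizes alone and by 0.32 to 0.42 with the offset. For differential OL enrichment it was by -0.25 to -0.24 with a total RNA library as the TMM reference and by -0.07 to 0.01 with library sizes alone. Leaving out the OL libraries rich in astrocyte markers moved differential OL enrichment by -0.20 to -0.10.

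With each library left out in turn, members lower in OL RNA ran from 34 to 35 in naive cord and from 32 to 33 on dpi 42, and members higher on dpi 2 from 2 to 3. In total RNA falls ran from 26 to 29 on dpi 2, 25 to 32 on dpi 10 (rises 0 to 1) and 5 to 18 on dpi 42, falls from dpi 2 to dpi 10 from 0 to 3, and rises from dpi 10 to dpi 42 from 0 to 1. In OL RNA rises ran from 4 to 6, 1 to 3 and 2 to 5 and falls from 8 to 21, 3 to 16 and 10 to 17 on dpi 2, 10 and 42, with 4 to 11 rises and 3 to 7 falls from dpi 2 to dpi 10 and 0 to 2 rises and 1 to 4 falls from dpi 10 to dpi 42. Differential OL enrichment was higher for 7 to 11, 3 to 6 and 1 to 5. With 3 libraries in a group, the simulation given under the processing missed part of the changes of 1 on the log2 scale. Its setting differed from the data, so its share is not the recovery rate of these comparisons. A missing call is no sign of an equal level.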

Other observations

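Among 9 genes known to be induced in injured neurons, 7, 8 and 5 rose in total RNA on dpi 2, 10 and 42, where 16.4%, 13.9% and 10.4% of all genes rose. By edgeR none was called lower, and 8, 8 and 5 had an unadjusted p under 0.05 in either direction. In OL RNA 6, 5 and 6 of them rose, against 18.4%, 9.62% and 16.2% of all genes, and 1 fell on dpi 10. Of the 9, 3 were higher and 6 lower in OL than in total RNA of naive cord, so the list is not particular to neurons. Which cells the rises came from was not tested.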
